A study of Neurospora crassa OR74A and Aspergillus nidulans FGSC A4 with 22 samples.

Results

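The response of wild-type *Aspergillus nidulans* FGSC A4 to crystalline cellulose was examined by comparing mycelia given Avicel, a microcrystalline cellulose powder, with mycelia given no carbon source. All cultures were grown for 16 h at 37°C with 1% glucose, washed, and moved to fresh medium holding either Avicel PH-101 at 2% or no carbon source, and poly(A)-selected RNA was sequenced 6 h later. Each group had 3 libraries, and the groups therefore share the strain, the growth on glucose and the loss of glucose, and differ in the added Avicel, a cellulose preparation that can carry traces of hemicellulose. Genes entered when the mean normalized count over all 6 libraries was at least 100, which kept 8571 of the 10596 *A. nidulans* genes and of the 20178 genes in the tables of both species. This limit does not use the difference between the groups, but a gene can pass it through a high mean in a single group. The last gene outside it had a mean of 99.8 and the first inside it a mean of 100.3. Values are the authors' means of counts divided by a size factor for each library, and ratios are the Avicel mean over the no carbon mean. In bulk RNA, fewer cells with a transcript and less of it per cell cannot be told apart. The labels call the material hyphae, and markers of conidia carry no names in the annotation used here. AN1937 and AN8803, planned by locus as such markers, had lower means on Avicel, with log2 ratios of -1.67 and -1.14. They are given because they fell among the extremes, and the other planned markers were not examined. Whether the groups differ in cell types was not tested.

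Fungi that live on plant material break cellulose down outside the cell. Endoglucanases cut within the chains, cellobiohydrolases release cellobiose from the chain ends, lytic polysaccharide monooxygenases of family GH61 cleave crystalline surfaces by oxidation with electrons from cellobiose dehydrogenase, and beta-glucosidases split cellobiose to glucose. Genes for these enzymes and for those acting on xylan, mannan and pectin are held down while glucose is present and need an inducing signal besides its removal. A culture with no carbon source has lost the glucose without gaining an inducer, which is why it serves as the comparison here. It was also without any carbon source after the shift. Effects of Avicel as a signal and of starvation on no carbon cannot be told apart in these ratios.

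Names and functions were those in the study's annotation, which covers 307 of the 8571 genes. The study annotated genes because it had found them induced by Avicel in these libraries or paired with an induced *N. crassa* gene, so the direction of annotated genes is no independent evidence, and counts over them are descriptions. All 235 genes whose Avicel mean was at least 4 times the no carbon mean were among the annotated ones, and none of the 3 genes lower by that factor was. Of the 307 annotated genes, 235 were thus at least 4-fold higher, and of the 65 with a test 59 rose and none fell, which is the background for every count of named genes.

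By the group means, more genes were at least 4-fold higher on Avicel than at least 4-fold lower. The Avicel mean was at least 4-fold the no carbon mean in 235 genes, which is 2.74% of the 8571, and lower by at least 4-fold in 3 genes, which is 0.0350%. The lower count depended on Avicel library 2, described with the libraries: among the 2502 genes whose Avicel libraries could be obtained, it was 3 with that library and 33 without it, and the higher count 55 and 67. A 2-fold limit gave 699 genes higher (8.16%) and 262 lower (3.06%), and an 8-fold limit 125 higher (1.46%) and 1 lower (0.0117%). At least 16-fold was reached by 78 genes and 64-fold by 37. Most of the transcriptome differed little, with 88.8% of genes within 2-fold and a median log2 ratio of -0.05 (quartiles -0.35 and 0.33). The extremes were 9.49 for AN7598, a family GH131 protein, and -3.34 for AN0499, which the annotation used here does not name. At the limit of 4-fold, the last gene inside had a log2 ratio of 2.01 and the first outside 1.99.

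**Figure D1:**
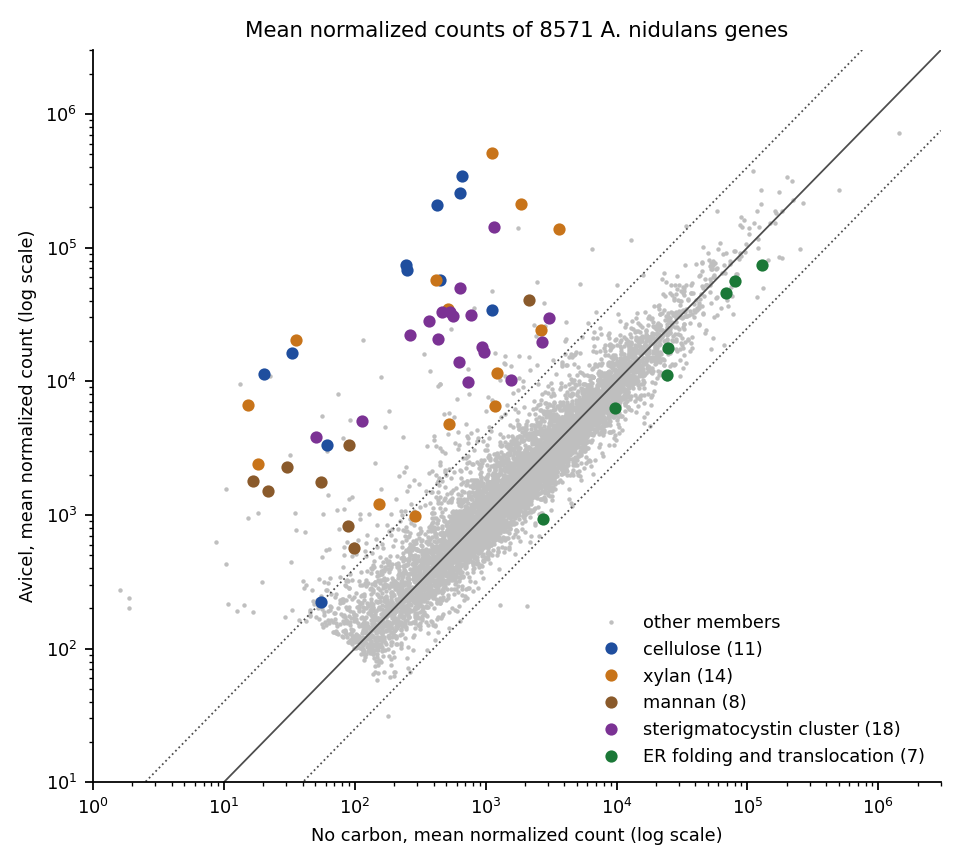
Mean normalized count on Avicel (vertical, log scale) against no carbon (horizontal, log scale) for 8571 genes, each the authors' mean of 3 libraries; the solid line marks equality and the dotted lines 4-fold differences. Cellulose, xylan, mannan and sterigmatocystin genes lie above the diagonal, with 1 of the 14 xylan genes inside the 4-fold line, and the 7 endoplasmic reticulum (ER) genes lie below it.

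The share of reads held by the genes at least 4-fold higher on Avicel is given as a description. These genes were chosen for their higher Avicel means, so a larger share there follows from the choice. Of all normalized counts on Avicel, the 235 genes held 9.29%, against 0.530% of those on no carbon. The 69 of them that carry a family of carbohydrate-active enzymes (CAZy) held 5.12% on Avicel and 0.0967% on no carbon, and 51 of these 69 are predicted to be secreted. Counts are not divided by transcript length, so these are shares of reads and not of molecules. Summed over all genes, normalized counts on Avicel were 1.10 times those on no carbon. In units of 1e+06 normalized counts this excess was 4.34, of which 4.11 lay in the 235 genes and 0.231 in all others. The last value is a net of rises and falls. The xylanase gene *xlnC* (AN1818) alone held 1.10% of counts on Avicel and 0.00266% on no carbon. Setting the sums equal would lower every log2 ratio by 0.14. It would leave 211 genes at least 4-fold higher and 11 at least 4-fold lower.

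The deposited means could be taken apart into libraries where they were low. Each mean is a sum of 3 whole read numbers, each divided by 3 times its library's size factor, and below a mean of 1000 usually 1 set of reads fits. All 6 libraries were obtained in this way for 1617 of the 8571 genes. The Avicel libraries were obtained for 2502 genes and the no carbon libraries for 1925, and both numbers include the 1617. The Avicel libraries had size factors of 1.03, 1.03 and 0.807, against 1.09, 1.04 and 1.04 for the no carbon libraries. The estimated reads, in units of 1e+06, were 48.3, 48.0 and 37.7 for Avicel, against 46.1, 44.1 and 43.9 for no carbon. Libraries are numbered by size factor from the largest, and these numbers are not the replicate numbers of the labels. Genes with an Avicel mean above 1000, such as most cellulase and xylanase genes, have library values on no carbon at most, and no test. *cbhA*, *cbhB*, *xlnA* and *xlnC* have none in either group.

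One library in each group stood apart from the other 2. On Avicel, libraries 1 and 3 correlated with each other at 0.95 over the 1617 genes, whereas library 2 correlated with them at 0.78 and 0.81. Avicel library 2 was also closer to the no carbon libraries, with correlations of 0.67 to 0.70, against 0.42 to 0.60 for Avicel libraries 1 and 3. On no carbon, libraries 1 and 3 correlated at 0.91, and library 2 at 0.82 and 0.85 with them. These correlations are across genes of the same libraries and are given as descriptions. Library 2 was the one farthest from the median of its group in 51.6% of genes on Avicel and in 47.1% on no carbon. For genes with group means from 100 to 1000, the median SD of log2 values between libraries was 0.19 on Avicel (2445 genes) and 0.28 on no carbon (1740 genes). What set these libraries apart was not tested. The main counts, and the values of some genes, are given with and without them where libraries were resolved. Ratios of genes with unresolved Avicel libraries could not be given without Avicel library 2.

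**Figure D2:**
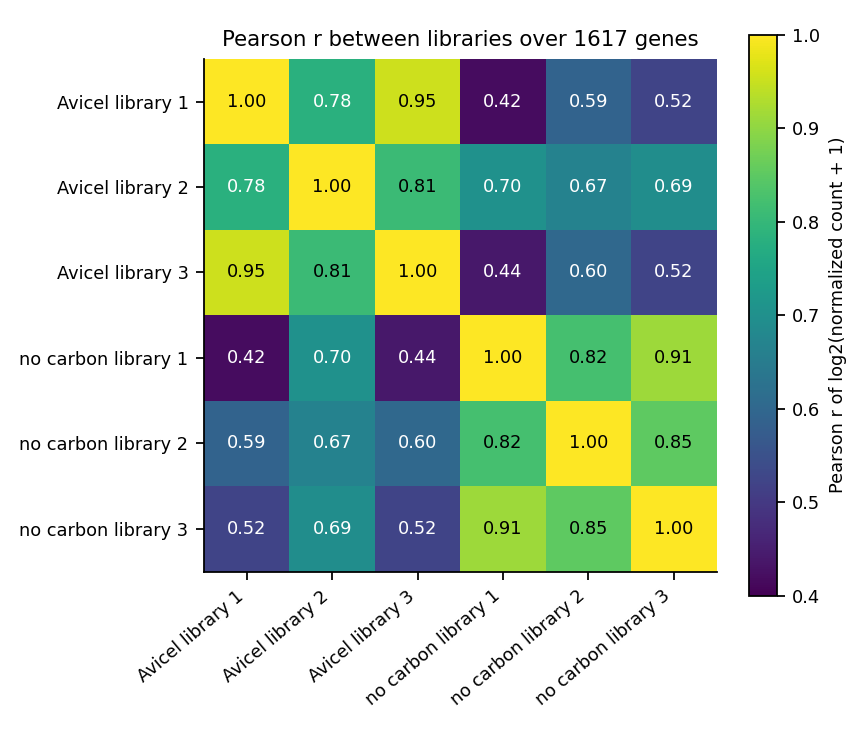
Pearson correlation of log2(normalized count + 1) between each pair of the 6 libraries over 1617 genes with means under 1000 in both groups; colour and number give r. Avicel library 2 has r of 0.78 and 0.81 with the other Avicel libraries and of 0.67 to 0.70 with the no carbon libraries.

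With the libraries in hand, many moderate changes in both directions exceeded the spread between libraries. Of the 1617 genes, 300 (18.6%) rose and 131 (8.10%) fell on Avicel at an adjusted p below 0.05 in limma, and 649 had an unadjusted p below 0.05. The median change of those that rose was 1.22 on the log2 scale, and of those that fell -0.81. Without Avicel library 2 the numbers were 318 and 141, without no carbon library 2 they were 355 and 200, and without both they were 458 and 292. Leaving out Avicel library 1 left 148 and 27, and leaving out Avicel library 3 left 158 and 34. Leaving out no carbon library 1 left 213 and 45, and leaving out no carbon library 3 left 228 and 73. With the sums of the groups set equal, 246 rose and 208 fell. A gene with a mean under 100 in one group entered through its mean in the other, so for such genes the test describes the libraries and adds no support to the direction. The counts of 300 and 131 include such genes and were not made without them, so they are descriptions too.

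All 7 genes of the list of cellobiohydrolases, endoglucanases and cellobiose dehydrogenase had means at least 4-fold higher on Avicel, with a median log2 ratio of 8.22. Together they took 1.71% of counts on Avicel and 0.00751% on no carbon. *cbhA* (AN5176), a GH7 cellobiohydrolase, had means of 206832 on Avicel and 422 on no carbon, a log2 ratio of 8.94. *cbhC* (AN5282), a GH6 cellobiohydrolase, had a mean of 16221 on Avicel, against 40.5, 39.4 and 20.3 in the no carbon libraries. *cbhD* (AN1273), also of GH6, had a mean of 57462 on Avicel, against 443, 397 and 503 in the no carbon libraries. In both genes the Avicel mean was over 100 times the highest no carbon library, by 401 times for *cbhC* and 114 times for *cbhD*. *cbhB* (AN0494), the other GH7 cellobiohydrolase, had the smallest log2 ratio of the list, 4.94, with means of 34290 on Avicel and 1120 on no carbon.

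The endoglucanase genes *eglA* (AN1285, GH5) and *eglB* (AN3418, GH7) had similar ratios. *eglA* had a mean of 73648 on Avicel, against 218, 242 and 281 in the no carbon libraries. *eglB* had a mean of 67864 on Avicel, against 195, 268 and 287 in the no carbon libraries. AN7230, for the cellobiose dehydrogenase that passes electrons to GH61 enzymes, had a mean of 340636 on Avicel, against 619, 705 and 658 in the no carbon libraries, a log2 ratio of 9.01. In these 3 genes the no carbon libraries differed among themselves by far less than they differed from the Avicel mean.

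Of 5 annotated GH61 genes, the 4 that met the limit on the mean had log2 ratios from 2.01 to 9.12. The study counts more predicted genes of this family in *A. nidulans*, and the others were not covered. AN3860 had a mean of 255946 on Avicel and 625, 722 and 557 in the no carbon libraries. AN10419 had a mean of 11298 on Avicel and 16.6, 24.0 and 20.3 in the no carbon libraries, the largest log2 ratio of the list at 9.12. AN6428 had a log2 ratio of 5.76. AN1602 was the only one of the 4 with all libraries resolved, at 255, 88.5 and 325 in the Avicel libraries and 25.8, 83.6 and 57.0 in the no carbon libraries. Its Avicel library 2 lay just above the highest no carbon library. It rose by 1.94 ± 0.58 (log2, SE; adjusted p = 0.041, limma), with adjusted p from 0.089 to 0.15 when Avicel library 1 or 3 or no carbon library 1 or 3 was left out. AN1602 entered through its Avicel mean, so this test adds no support to the direction. AN7598, whose family GH131 is known for beta-glucan hydrolysis, had a mean of 9507 on Avicel and 18.4, 14.4 and 6.76 in the no carbon libraries.

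The beta-glucosidases divided. AN10124, a GH1 enzyme, *bglI* (AN2227) and *bglH* (AN3903), both GH3, had log2 ratios of 5.50, 4.99 and 3.05. *bglL* (AN2828) had means of 211384 on Avicel and 126497 on no carbon, a log2 ratio of 0.74, and *bglA* (AN4102) a log2 ratio of 0.11. *bglB* (AN0712) had 376, 421 and 318 in the Avicel libraries and 432, 345 and 464 in the no carbon libraries. These groups overlap, and the difference of -0.15 (95% interval -0.59 to 0.29, adjusted p = 0.59, limma) did not exceed the spread. Because *bglL* was already high on no carbon, the 6 genes together took 0.594% of counts on Avicel and 0.341% on no carbon.

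**Figure D3:**
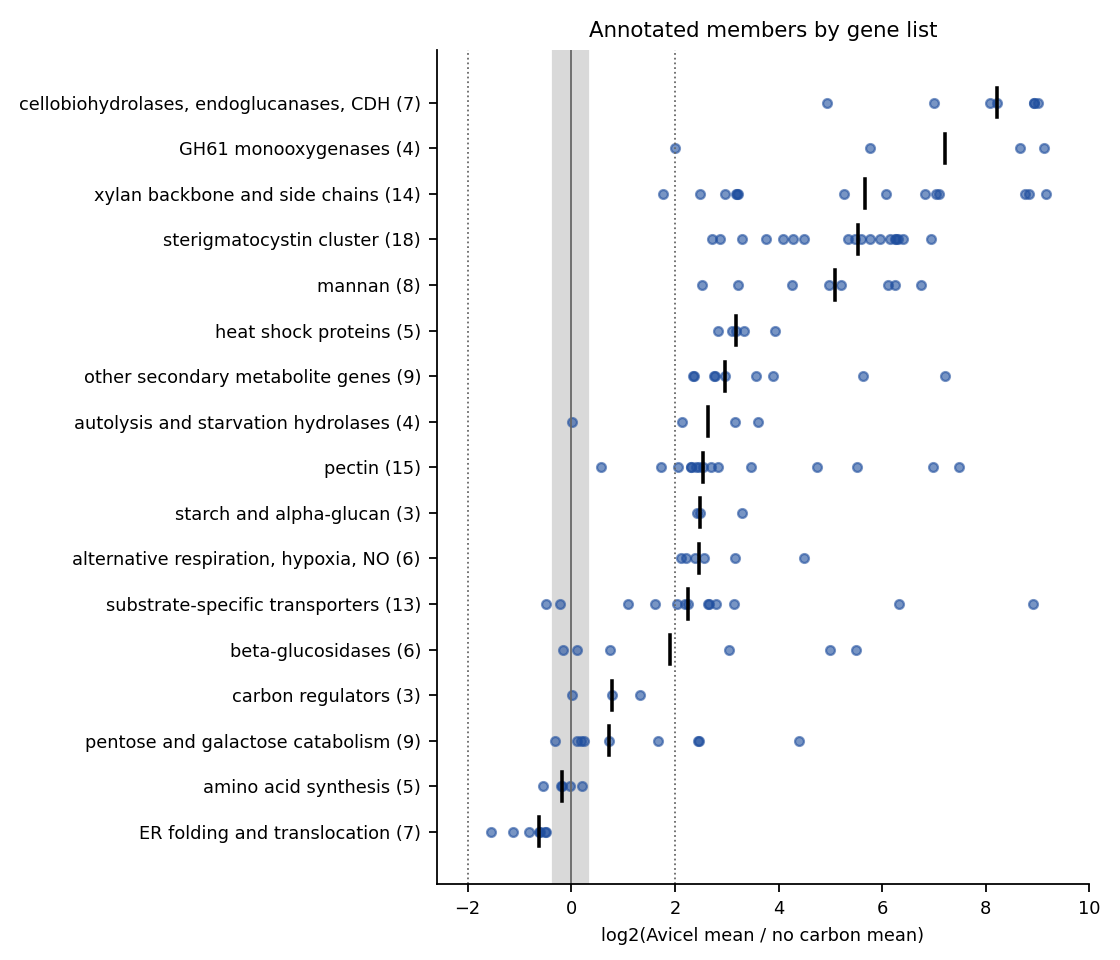
log2 of the Avicel mean over the no carbon mean for annotated genes of the lists with at least 3 genes, the number of which stands in brackets; each point is a gene, the bar is the list's median, the grey band the quartiles of all 8571 genes and the dotted lines 4-fold. Medians run from 8.22 for cellobiohydrolases, endoglucanases and cellobiose dehydrogenase (CDH) to -0.63 for ER folding and translocation.

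Genes for the breakdown of xylan, a hemicellulose of grasses and hardwoods, were also higher on Avicel, 13 of 14 by at least 4-fold, with a median log2 ratio of 5.66. They took 2.21% of counts on Avicel and 0.0323% on no carbon. The endoxylanases, which cut the xylan backbone, differed in ratio. *xlnC* (AN1818, GH10) had a log2 ratio of 8.83, *xlnE* (AN7401, GH10) of 8.76, *xlnA* (AN3613, GH11) of 6.82 and *xlnB* (AN9365, GH11) of 2.97. *xlnE* had a mean of 6602 on Avicel and 8.28, 28.8 and 8.69 in the no carbon libraries, so that no carbon library 2 stood above the others.

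Side-chain enzymes of xylan were higher as well. *axhB* (AN2632) and *axhA* (AN7908), GH62 arabinofuranosidases that take arabinose off xylan, had log2 ratios of 9.16 and 6.07. *axhB* had a mean of 20504 on Avicel and 28.5, 34.6 and 44.4 in the no carbon libraries. The acetyl xylan esterase gene *axeA* (AN6093) had a log2 ratio of 7.11, the feruloyl esterase gene *faeC* (AN5267) of 5.25 and the alpha-glucuronidase gene *aguA* (AN9286) of 3.23. The beta-xylosidase gene *xlnD* (AN2359), which frees xylose, had a mean of 4750 on Avicel and 478, 526 and 571 in the no carbon libraries. The gene under 4-fold was *abfB* (AN1571), a GH54 arabinofuranosidase, with a mean of 983 on Avicel and 214, 300 and 350 in the no carbon libraries.

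All 8 annotated mannan genes were at least 4-fold higher on Avicel, with a median log2 ratio of 5.09. The endomannanase genes *manF* (AN9276), *manB* (AN3297) and *manC* (AN6427) had log2 ratios of 6.75, 6.25 and 6.11. *manF* had a mean of 1799 on Avicel and 17.5, 15.4 and 17.4 in the no carbon libraries, which agree closely. *mndB* (AN3368), for the beta-mannosidase that acts on the released oligosaccharides, had a log2 ratio of 4.25. *aglD* (AN7152), an alpha-galactosidase gene, had 1039, 528 and 893 in the Avicel libraries and 90.1, 104 and 70.5 in the no carbon libraries. It rose by 3.16 ± 0.29 (log2, SE; adjusted p = 0.00114, limma). *manE* (AN7413), a GH26 endomannanase gene, had 575, 356 and 777 in the Avicel libraries and 126, 60.5 and 109 in the no carbon libraries. It rose by 2.51 ± 0.36 (adjusted p = 0.00327). In both genes Avicel library 2 was the lowest of its group and still above every no carbon library. All 3 Avicel libraries lay above all 3 no carbon libraries in 448 of the 1617 genes (27.7%). Both genes had no carbon means under 100, so these tests add no support to the direction.

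Pectin genes had smaller ratios, with 13 of 15 at least 4-fold higher and a median log2 ratio of 2.55. The highest was *pelA* (AN0741), a pectate lyase gene, with a mean of 20504 on Avicel and 119, 105 and 123 in the no carbon libraries. *pelB* (AN2569), a pectin lyase gene, had a log2 ratio of 5.52. *xghA* (AN3389), a putative xylogalacturonan hydrolase gene, had 337, 62.2 and 318 in the Avicel libraries and 1.84, 0 and 3.86 in the no carbon libraries, the last resting on 6 reads in all. The ratio of its means was 126, and the counting error of those 6 reads alone allows 57.9 to 343. It entered through its Avicel mean alone, so a test would add no support to the direction, and none is given. The pectate lyase gene *plyG* (AN6748) had 347, 123 and 353 in the Avicel libraries and 40.5, 48.0 and 52.1 in the no carbon libraries, and rose by 2.38 ± 0.42 (adjusted p = 0.00676). AN2834, for a rhamnogalacturonan acetylesterase, rose by 2.25 ± 0.32 (adjusted p = 0.00327, limma). *plyG* and AN2834 also entered through their Avicel means, with no carbon means under 100, so their tests add no support to the direction either. The genes under 4-fold were *rglA* (AN7135), a rhamnogalacturonan lyase gene with a log2 ratio of 1.73, and *abxA* (AN2060), for a putative exo-arabinanase, with 0.58.

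**Figure D4:**
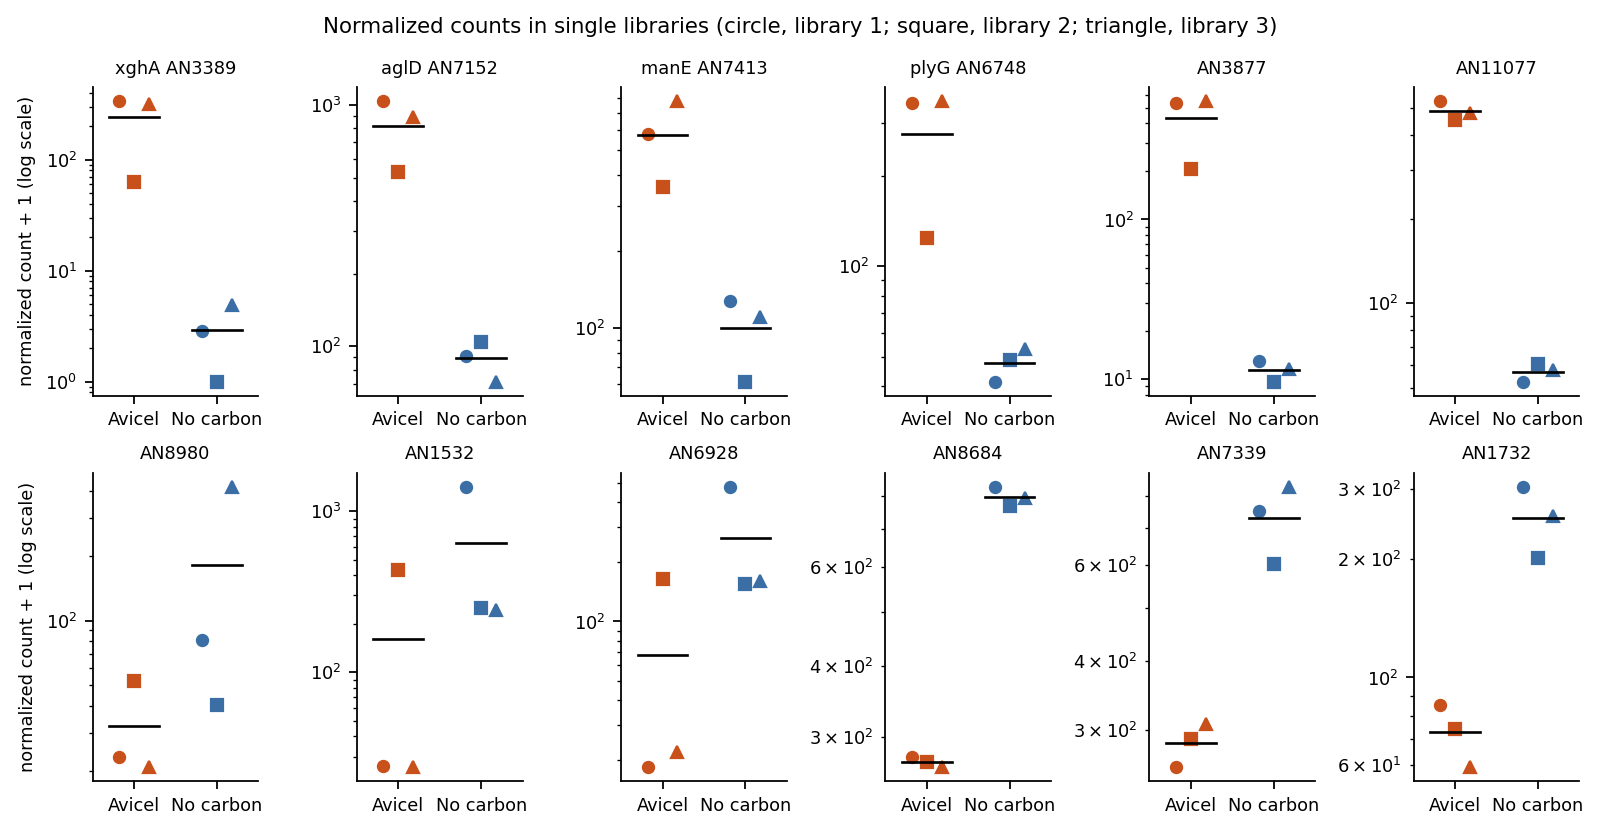
Normalized count + 1 (log scale, ranges differ between panels) in single libraries for 12 genes with all 6 libraries resolved, Avicel left of no carbon; circles, squares and triangles are libraries 1, 2 and 3 and the bar is the group mean. In *xghA*, *aglD*, *manE*, *plyG* and AN3877 the Avicel square lies lowest; in AN8980, AN1532 and AN6928 it lies highest and the groups overlap; in AN8684, AN7339 and AN1732 they do not.

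The 3 listed genes of starch and alpha-glucan, among them the alpha-glucan synthase gene *agsB* (AN3307), were at least 4-fold higher, with a median log2 ratio of 2.49. Sugar uptake and use differed from gene to gene. Of 13 listed transporters of sugars and other substrates, 9 were at least 4-fold higher on Avicel, against 235 of the 307 annotated genes. AN1577 had a mean of 10928 on Avicel and 13.8, 31.7 and 22.2 in the no carbon libraries, a log2 ratio of 8.92. AN2814 had a log2 ratio of 6.32 and AN8347 of 3.15. All 3 transporters of the list with 6 resolved libraries rose: AN6831 by 2.75 ± 0.28, AN7067 by 2.57 ± 0.34 and AN3498 by 1.13 ± 0.23 (log2, SE; adjusted p = 0.00172, 0.00287 and 0.011, limma). Among all annotated genes, 59 of the 65 tested rose. AN6831 and AN7067 had no carbon means under 100, so their tests add no support to the direction. AN3498 had an adjusted p of 0.052 without Avicel library 1 or without Avicel library 3. AN8889 and AN4277 had log2 ratios of -0.23 and -0.49 and were not tested.

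In the pathway that turns xylose into xylulose phosphate, the first of 3 steps had the largest ratio. AN0423, for the D-xylose reductase, had means of 21020 on Avicel and 6576 on no carbon, a log2 ratio of 1.68. The xylitol dehydrogenase gene AN9064 had a log2 ratio of 0.11 and the xylulokinase gene AN8790 of -0.32. On the galactose side, the beta-galactosidase gene *lacA* (AN0756) had a mean of 9462 on Avicel and 431, 435 and 479 in the no carbon libraries. Among the 9 genes of pentose and galactose use, 3 were at least 4-fold higher. Central metabolism is barely covered by the annotation. *maeA* (AN6168), for a malic enzyme labelled as a malate dehydrogenase, had a log2 ratio of 2.24, and *tpiB* (AN5908), for a triose-phosphate isomerase, one of -0.08.

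The 3 carbon regulators listed were not 4-fold higher. *clrB* (AN3369), for a zinc-cluster regulator of cellulase genes, had means of 12697 on Avicel and 5082 on no carbon, a log2 ratio of 1.32. *clrA* (AN5808), for another zinc-cluster regulator, had means of 6726 on Avicel and 3899 on no carbon, a log2 ratio of 0.79. *xprG* (AN1414), a regulator of proteases under starvation, had 24086 on Avicel and 23824 on no carbon, and its log2 ratio of 0.02 turns to -0.13 when the sums of the groups are set equal. Their means are above 1000, so single libraries were not resolved and no test was made.

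Genes of the sterigmatocystin cluster, which makes a polyketide mycotoxin related to aflatoxin, had higher means on Avicel. All 18 annotated genes were at least 4-fold higher on Avicel, with a median log2 ratio of 5.53 and a range from 2.72 for *stcF* (AN7818) to 6.94 for the polyketide synthase gene *stcA* (AN7825). They took 1.11% of counts on Avicel and 0.0376% on no carbon. *stcA* had means of 142276 on Avicel and 1163 on no carbon. AN7823, which the annotation does not name and whose identifier lies among those of the cluster, had 385, 743 and 613 in the Avicel libraries and 209, 117 and 121 in the no carbon libraries. It rose by 1.96 ± 0.32 (log2, SE; adjusted p = 0.00541, limma), which is under 4-fold.

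On no carbon the cluster varied strongly between libraries. In each of the 9 *stc* genes resolved there, library 1 was the highest and library 2 the lowest, with library 1 from 2.02 to 11.5 times library 2 (median 3.69). *stcU* (AN7806), for a versicolorin reductase, had a mean of 28094 on Avicel and 773, 67.2 and 259 in the no carbon libraries. *stcL* (AN11013), for a cytochrome P450, had a mean of 22372 on Avicel and 565, 70.1 and 157 in the no carbon libraries. The Avicel mean was still at least 12.5 times no carbon library 1, the highest, in each of the 9 genes (median 36.4). In the 24 resolved cellulose, xylan and mannan genes, the highest no carbon library was a median of 1.47 times the lowest, and their summed counts were 4370, 4943 and 5024 in no carbon libraries 1, 2 and 3. The sums of the 9 *stc* genes were 6572, 1891 and 3506 in the same libraries.

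**Figure D5:**
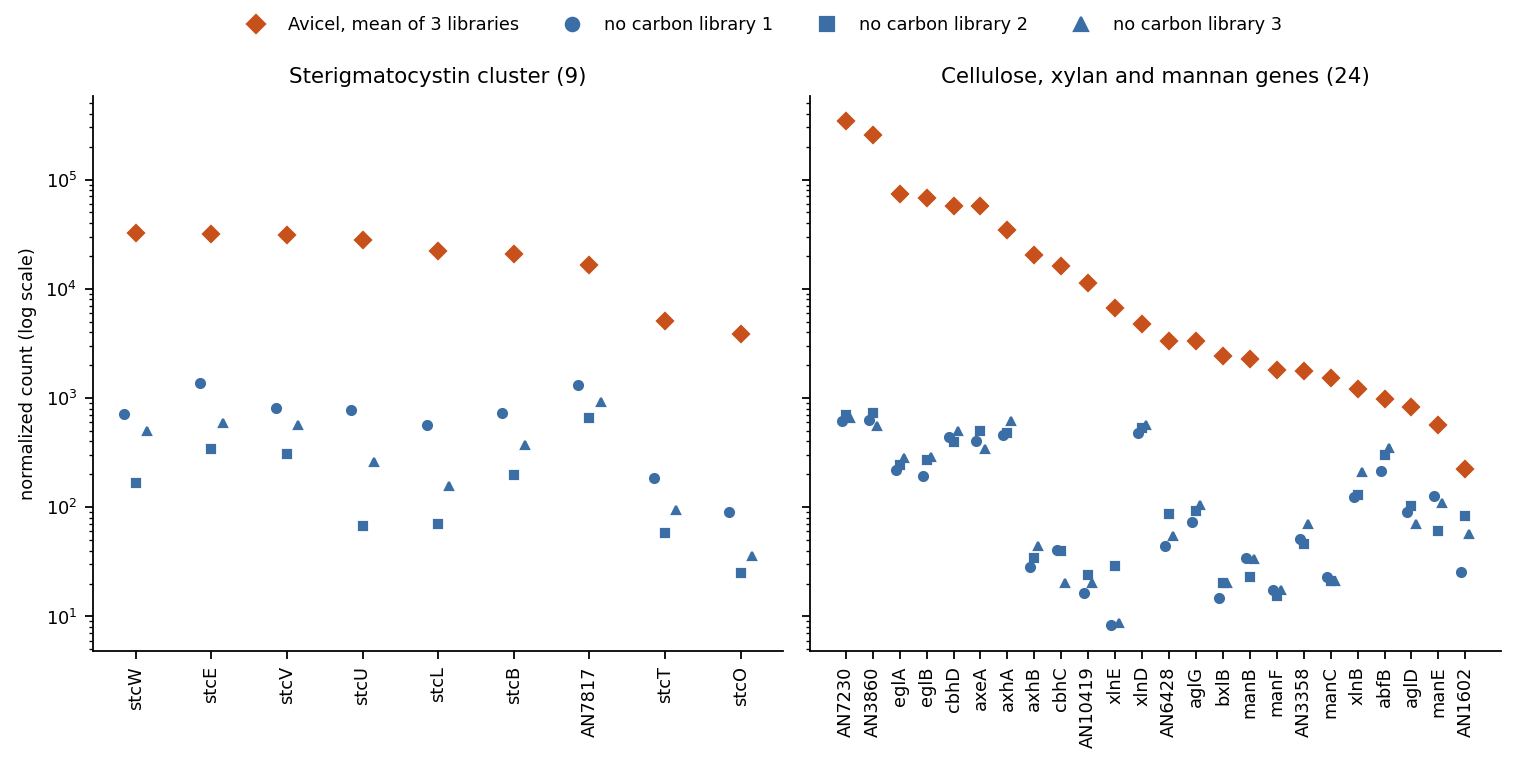
Normalized count (log scale) for 9 sterigmatocystin genes (left) and 24 cellulose, xylan and mannan genes (right) resolved on no carbon; diamonds are the Avicel mean of 3 libraries, and circles, squares and triangles no carbon libraries 1, 2 and 3. In all 9 *stc* genes the circle lies highest and the square lowest, and every diamond lies above every no carbon library.

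Other secondary metabolite genes were also higher, all 9 of those listed by at least 4-fold. The penicillin genes *acvA* (AN2621), *ipnA* (AN2622) and *aatA* (AN2623), which act in this order, had log2 ratios of 3.90, 3.57 and 2.97. The polyketide synthase gene *orsA* (AN7909) of the orsellinic acid cluster had a mean of 3030 on Avicel and 24.8, 94.1 and 65.7 in the no carbon libraries. *tdiA* (AN8513), *tdiB* (AN8514) and *tdiD* (AN8516) of the terrequinone cluster had log2 ratios of 2.78, 2.34 and 2.75. AN12331, a polyketide synthase-like gene, had 236, 782 and 472 in the Avicel libraries and 83.7, 114 and 89.8 in the no carbon libraries and rose by 2.21 ± 0.40 (log2, SE; adjusted p = 0.00754, limma). Here Avicel library 2 was the highest of its group, as in 7 of the 55 resolved genes at least 4-fold higher. It was the lowest in 43 of them. The no carbon mean of AN12331 was under 100, so its test adds no support to the direction.

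Stress and respiration genes shared moderate ratios. All 5 annotated heat shock genes that met the limit on the mean were at least 4-fold higher, against 235 of the 307 annotated genes. Heat shock genes without a name in the annotation were not covered. *hsp104* (AN0858), a disaggregase gene, had means of 98329 on Avicel and 6451 on no carbon (log2 ratio 3.93), and *hsp30* (AN2530) had a log2 ratio of 3.34. All 6 annotated genes of alternative respiration, hypoxia and nitric oxide were at least 4-fold higher, to be read against the same share. AN2099, for the alternative oxidase that passes electrons to oxygen without pumping protons, had means of 55297 on Avicel and 2470 on no carbon, a log2 ratio of 4.48. *ndiF* (AN1094), for a mitochondrial NADH dehydrogenase, had a log2 ratio of 2.39. *fhbA* (AN7169), for a flavohemoprotein that detoxifies nitric oxide, had a mean of 3423 on Avicel and 467, 919 and 354 in the no carbon libraries. *sodM* (AN0785), for a manganese superoxide dismutase, had 393, 86.5 and 214 in the Avicel libraries and 49.7, 68.2 and 36.7 in the no carbon libraries. It rose by 1.94 ± 0.53 (adjusted p = 0.030, limma), and adjusted p ran from 0.081 to 0.10 when Avicel library 1 or 3 or no carbon library 1 or 3 was left out. *sodM* entered through its Avicel mean, so this test adds no support to the direction.

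The 3 listed cell wall hydrolases known from starving cultures were at least 4-fold higher on Avicel, against 235 of the 307 annotated genes. Hydrolases that the annotation does not name were not covered, so the 3 do not stand for all such enzymes. The chitinase gene *chiA* (AN8241) had a mean of 7340 on Avicel and 497, 769 and 555 in the no carbon libraries, and *chiC* (AN9390) had a log2 ratio of 3.16. AN8480, for a putative glucan 1,3-beta-glucosidase, had 149, 215 and 281 in the Avicel libraries and 45.1, 58.6 and 43.5 in the no carbon libraries and rose by 2.08 ± 0.30 (log2, SE; adjusted p = 0.00327, limma). Since it entered through its Avicel mean, the test adds no support to the direction. The ammonium transporter gene *meaA* (AN7463) had a log2 ratio of 2.25 and the nitrite reductase gene *niiA* (AN1007) one of 0.23.

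Genes for folding and translocation in the ER, through which secreted enzymes pass, lay on the other side. All 7 had a lower mean on Avicel, none by 4-fold, with a median log2 ratio of -0.63 against -0.05 over all genes. The lowest was *sec61* (AN0417), labelled a subunit of the translocation complex, with means of 931 on Avicel and 2739 on no carbon, a log2 ratio of -1.56. AN0847, an ER chaperone gene, had a log2 ratio of -1.13, *bipA* (AN2062), for the ER chaperone of the HSP70 family, of -0.82, the calnexin gene *clxA* (AN3592) of -0.60 and the protein disulfide isomerase gene *pdiA* (AN7436) of -0.51. Together they took 0.453% of counts on Avicel and 0.804% on no carbon. None was resolved into libraries, so whether these differences exceed the spread was not tested. The 5 genes of amino acid synthesis had log2 ratios from -0.54 to 0.21.

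Several of the genes with the lowest ratios varied strongly between libraries, but not all of them. AN3263 had 460, 508 and 555 in the Avicel libraries, and a log2 ratio of -1.72 with and without Avicel library 2. AN0499 had 35.8, 556 and 28.5 in the Avicel libraries and a no carbon mean of 2088. Its mean was 10.1-fold lower on Avicel over all libraries and 65.0-fold lower without Avicel library 2. AN8981 had 105, 463 and 70.6 in the Avicel libraries and a no carbon mean of 1283. Its log2 ratio was -2.59 over all libraries and -3.87 without Avicel library 2. AN8980 had 22.2, 51.5 and 19.8 in the Avicel libraries and 80.0, 39.4 and 418 in the no carbon libraries. These groups overlap. The log2 ratio of its means was -2.52, and its limma difference of -1.92 ± 0.83 (log2, SE) had an adjusted p of 0.13 (limma). That adjusted p was 0.086 without Avicel library 2 and 0.039 without no carbon library 2 (limma). AN8980 entered through its no carbon mean, so these values add no support to the direction. Of the 25 genes with the lowest ratios, 17 had resolved Avicel libraries, and library 2 was the highest in 15 of these, by at least 3-fold in 8. Over the 2502 genes with resolved Avicel libraries, 3 were at least 4-fold lower with all libraries and 33 without Avicel library 2. Higher by 4-fold were 55 with all of them and 67 without it. Over the 1925 genes with resolved no carbon libraries, 1 was at least 4-fold lower with all libraries and 7 without no carbon library 2.

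Genes just outside the limit showed the same spread. AN1532 had 25.1, 433 and 24.8 in the Avicel libraries and 1422, 250 and 242 in the no carbon libraries. The log2 ratio of its means was -1.99, just short of 4-fold. The limma difference, taken between group means of log2 values, was -2.74 ± 1.15 (log2, SE; adjusted p = 0.11, limma). Without Avicel library 2 the adjusted p was 0.00668 (limma). AN6928 had 17.4, 162 and 21.1 in the Avicel libraries and 478, 154 and 158 in the no carbon libraries, with an adjusted p of 0.062, and of 0.00395 without Avicel library 2. In both, Avicel library 2 lay within the range of the no carbon libraries. AN6928 entered through its no carbon mean, so its adjusted p values add no support to the direction.

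Falls that were alike in all libraries were under 4-fold in the 3 genes given here, of which AN1732 is also among the lowest ratios. AN8684 had 275, 269 and 264 in the Avicel libraries and 832, 767 and 793 in the no carbon libraries and fell by 1.56 ± 0.14 (log2, SE; adjusted p = 0.00114, limma). AN7339 had 255, 287 and 306 in the Avicel libraries and 751, 601 and 832 in the no carbon libraries and fell by 1.35 ± 0.18 (adjusted p = 0.00287). AN1732 had 84.1, 72.9 and 58.2 in the Avicel libraries and 304, 200 and 256 in the no carbon libraries. It fell by 1.80 ± 0.25 (adjusted p = 0.00303, limma), the largest fall past the threshold. AN1732 entered through its no carbon mean, so its test adds no support to the direction. In these 3 genes the libraries of the groups did not overlap, and all stayed past the threshold whichever library was left out. All 3 Avicel libraries lay below all 3 no carbon libraries in 263 of the 1617 genes (16.3%). None is named by the annotation used here, and none of the 131 genes that fell is annotated. Of the 131, 38 fell by at least 2-fold.

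In *N. crassa* the same limits, applied to libraries made 4 h after the shift at 25°C, gave 217 of 7863 genes (2.76%) at least 4-fold higher on Avicel and 38 (0.483%) at least 4-fold lower. The tables were normalized separately and the times and temperatures differ, so no comparison between the species was made.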

How the data were processed

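RNA-seq libraries of wild-type *A. nidulans*, 3 on Avicel and 3 with no carbon source, were compared. By the submitters' processing notes, tools included CASAVA 1.8.0, TopHat2 2.0.4, Cufflinks 2.0.2, HTSeq and DESeq, and the authors' methods give mapping with TopHat and counting on unique exons with HTSeq. The authors deposited a signal per gene and group, to 10 significant digits, which is the mean over 3 libraries of read counts scaled by DESeq size factors. The deposited table also holds the authors' fold change, log2 fold change, p-value and adjusted p-value, which were not used. No column of per-sample values was left unmapped. Other samples of the series were not used here, except in 1 count for *N. crassa*.

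Genes with a mean of at least 100 were kept, and ratios were formed without a pseudocount. Reads of single libraries were recovered by searching whole-number solutions for means under 1000 (numpy 2.4.6), which found 1 solution for 4527 of 4890 Avicel means and 3950 of 4938 no carbon means. This keeps genes with low means in both groups only. Recovered reads, divided by size factors, were tested as log2(value + 1) with limma 3.58.1 (R 4.3.3), with a mean trend and Benjamini-Hochberg adjustment over 1617 genes. This test was added after the files were seen. Both steps were tested on simulated data. The study calls its replicates biological, and the labels do not say which cultures they came from, so p-values measure the spread between these samples. Intervals on reads are exact Poisson (95%) and cover counting error only.

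Members and lists were chosen with earlier results of these data known. The named genes are the 25 largest and smallest ratios, the 20 largest means of each group, the 15 largest differences each way, genes beside the limits, and list members; AN8684, AN7339, AN7823, genes named for their libraries or as rises, the genes of the single-library plot and the CAZy counts were picked after their values were seen. Of the list entries written, 137 without a name in the study's annotation were dropped, which left 14 of 40 lists without a gene. The annotation is that of the study's supplement; no *A. nidulans* genome or annotation was used, so planned checks of neighbouring genes and promoter motifs were not run and no sequence is shown. Figures were drawn with matplotlib 3.10.9.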

Additional observations from a re-analysis of the deposited data

How the results depend on the processing

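Of genes at least 4-fold higher on Avicel, 235 as reported, there were 441 with no limit on the mean, 149 at a mean of at least 1000, 699 at a 2-fold and 125 at an 8-fold limit. Of genes at least 4-fold lower, 3 as reported, there were 71, 1, 262 and 1 under the same settings, 6 at a mean of at least 10, and 11 with sums set equal. In limma, 300 genes rose and 131 fell. These numbers were 471 and 152 at a mean of at least 10, and 246 and 208 with sums set equal. Over single libraries left out, and both libraries 2, they ranged from 148 to 458 and from 27 to 292. Over the same settings, the 1617 genes held 48 to 78 at least 4-fold higher and 1 to 27 at least 4-fold lower. Pseudocounts of 1 and 10 moved the log2 ratio of 3 and 57 of 357 genes by more than 1 standard error. The direction of 14 genes, all within 0.14 of zero, turned with equal sums, and of 1 with median centring. No paired analysis was possible because the deposited columns are group means and the recovered libraries carry no replicate numbers. Count models on deposited counts were not run, as the files hold none. Low depth limits genes with few reads on no carbon, and means above 1000 hide the spread between libraries.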

Other observations

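Some groups chosen after their values were seen are given as values. Of 10 genes labelled cytochromes P450, 9 were at least 4-fold higher on Avicel, 4 of them in the sterigmatocystin cluster, and all 3 with resolved libraries rose, read against 59 of 65 annotated genes. AN7932, labelled CYP682A1, had 475, 485 and 576 in the Avicel libraries and 230, 11.5 and 65.7 in the no carbon libraries, and AN7933, a predicted methyltransferase gene, had 141, 213 and 233 in the Avicel libraries and 65.3, 7.69 and 27.0 in the no carbon libraries. When Avicel library 1 or 3 or no carbon library 3 was left out, the adjusted p of AN7932 was 0.083 to 0.10 and that of AN7933 0.050 to 0.067, and AN7932 had 0.051 without Avicel library 2. Both have the order of no carbon libraries that the *stc* genes have, with library 1 highest and library 2 lowest. AN7933 entered through its Avicel mean, so its adjusted p values add no support to the direction. AN11882 had a mean of 1513 on Avicel and 86.5, 646 and 19.3 in the no carbon libraries, with library 2 highest.

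All 6 genes whose annotation says that nitrate induces them were at least 4-fold higher on Avicel, as were 235 of the 307 annotated genes, and the 4 with resolved libraries rose, as did 59 of 65 annotated genes. AN1791 had 404, 165 and 250 in the Avicel libraries and 0, 0.961 and 3.86 in the no carbon libraries, those counts resting on 5 reads. AN3611 had 217, 165 and 224 in the Avicel libraries and 2.76, 0.961 and 1.93 in the no carbon libraries, from 6 reads. *niiA* (AN1007), the nitrite reductase gene, had a log2 ratio of 0.23. The smallest adjusted p of the 1617 genes was that of AN11077, a predicted acetyltransferase gene, with 528, 449 and 480 in the Avicel libraries and 51.5, 59.6 and 57.0 in the no carbon libraries (3.09 ± 0.18, SE, adjusted p = 0.000257, limma). AN1791, AN3611 and AN11077 entered through their Avicel means, so their tests add no support to the direction.

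AN4871 took 1.54% of normalized counts on Avicel and 3.40% with no carbon source, the most of any gene in both groups. It is not named by the annotation used here. The genes AN8979, AN8980 and AN8981, with consecutive identifiers, had log2 ratios of -1.98, -2.52 and -2.59, and *alcP* (AN8977), a gluconolactonase gene, one of -0.71. Whether they are neighbours was not checked. The list of ethanol use holds *alcP* and *alcC* (AN2286), and *alcC* went the other way, with a log2 ratio of 2.10.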
